A study of Mus musculus with 2 samples.

Results

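The nuclear genes of the mitochondrial respiratory chain were read in total RNA of G1E-ER4 cells, a mouse erythroid line without a working Gata1 gene of its own that carries an estradiol-dependent form of GATA1. Cells of both libraries had received 17beta-estradiol at 10 nM for 24 h; they are labelled biological replicates 1 and 2. Members were chosen by name alone: protein-coding genes outside the mitochondrial genome whose GENCODE M21 symbol begins with Nduf, Uqcr, Atp5 or Cox4 to Cox8, or is Sdha, Sdhb, Sdhc, Sdhd, Cyc1 or Cycs. This gave 96 genes in the annotation, of which 95 had a row among 43346 Ensembl gene rows and among 21461 nuclear protein-coding genes. The libraries were made from 100 ng of RNA depleted of ribosomal RNA. There is 1 treated group and no untreated or other group among the samples here, so no test between conditions was possible and every value below is given with its spread over the 2 libraries.

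The respiratory chain moves electrons from NADH and succinate to oxygen through complexes I to IV and uses the proton gradient built on the way to make ATP at complex V, the ATP synthase. Most of its subunits are encoded in the nucleus and imported, while a small core of hydrophobic subunits is encoded by mitochondrial DNA. Several complex IV subunits have paralogs known for particular tissues, such as heart and skeletal muscle, lung or testis. Erythroid cells need mitochondria for the first and last steps of haem synthesis while they mature, and later lose them.

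The 2 libraries held 62081014 and 41051163 expected counts, the deposited estimates of reads per gene. Members took 570326 and 392124 of them, or 0.919% and 0.955%. Ensembl gene rows with any count numbered 16115 in replicate 1 and 19353 in replicate 2, the library with fewer counts. All 7 erythroid marker genes stood at 1 TPM or more in both libraries, and they summed to 1472 and 2194 TPM. The 6 myeloid markers summed to 0.15 and 1.49 TPM, and 3 lymphoid markers had no counts. TPM, scaled to a fixed sum per library, is a level per length: a gene's count is divided by an effective length, which here is the transcript length less 202.74 bases in replicate 1 and less 219.35 bases in replicate 2. That subtraction weighs on these genes, because 34.1% of the 88 members averaging 1 TPM or more were shorter than 600 bases, against 2.39% of the 7953 nuclear protein-coding genes at that level. Of the 91 members with any count, 71 had a posterior standard deviation of their count of 0 in both libraries. In 4 members it was above 1% of the count. These numbers are not set beside those of all genes.

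Nearly the whole set was expressed. Of the 95 members, 87 (91.6%) reached 1 TPM in both libraries, against 36.3% of all nuclear protein-coding genes. In these bulk samples, fewer cells of a type and less RNA per cell cannot be told apart. The members' median level was 27.9 TPM in replicate 1 and 29.1 TPM in replicate 2, where the median nuclear protein-coding gene with a mean of 1 TPM or more stood at 6.23 and 6.21 TPM. The difference was 2.20 ± 0.04 on the log2 scale of TPM (SD, n = 2), a 4.58-fold higher level. It rests on the division by length: by library-scaled expected counts, the median member differed from the median gene by 0.05 ± 0.04 log2. The members are 0.443% of nuclear protein-coding genes and held 3.50% and 3.38% of their summed TPM. The 2 related sets measured beside them lay lower in TPM, with medians of 8.57 and 9.39 TPM for 77 mitochondrial ribosomal protein genes and 22.3 and 20.1 TPM for 13 genes of the tricarboxylic acid cycle. Their transcripts were longer, with median lengths of 1053 and 2241 bases, against 731 for the members averaging 1 TPM or more. These sets were not compared in counts.

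**Figure D1:**
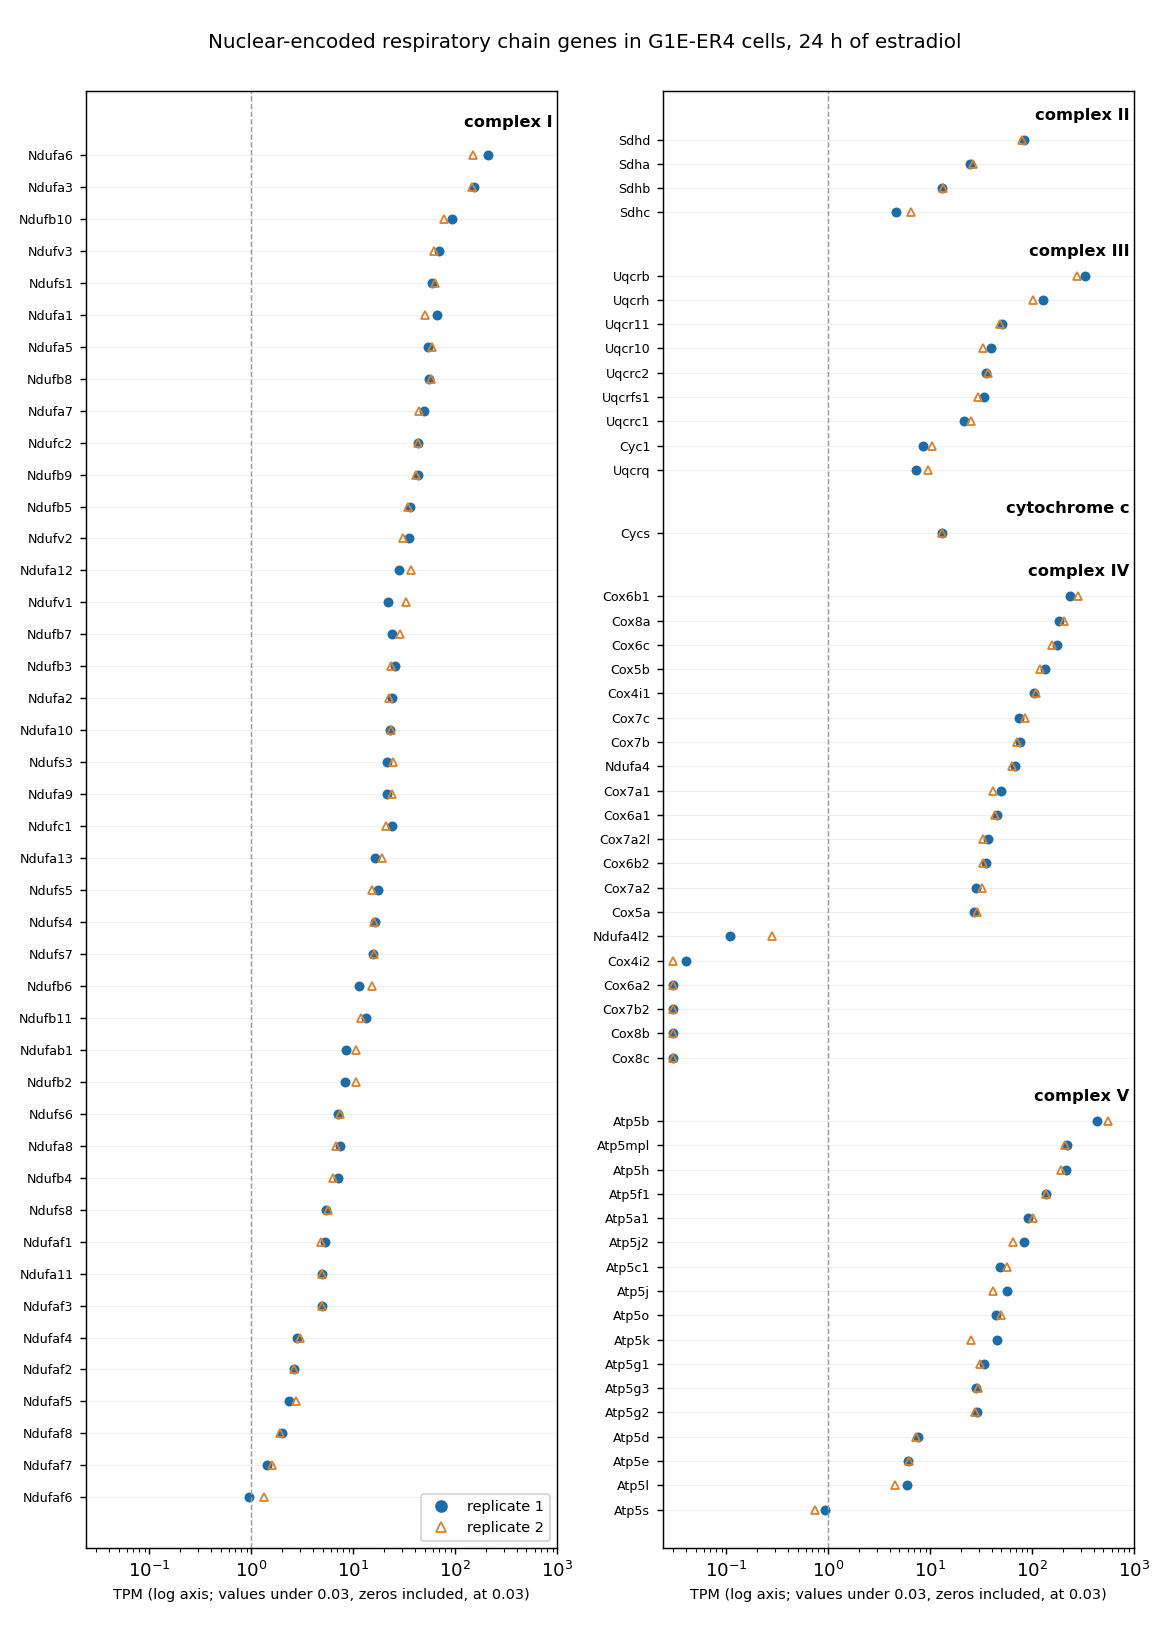
Level of the members in TPM (log axis), by complex, with replicate 1 as filled circles and replicate 2 as open triangles; the dashed line is 1 TPM. Members spread from no counts (4 genes of complex IV) to 430 and 549 TPM (Atp5b), and the 2 libraries lie close together for nearly every gene.

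Complex I takes electrons from NADH and passes them to ubiquinone. Its 44 members had a median of 21.3 and 21.7 TPM, and 43 of them reached 1 TPM in both libraries. The 7 nuclear core subunits, which hold the flavin and the iron-sulphur clusters, ranged over an order of magnitude. Ndufs1, the largest subunit of the NADH-oxidising arm, had 59.3 and 62.8 TPM. Ndufs8, an iron-sulphur subunit, was the lowest with 5.39 and 5.60 TPM. Between these, Ndufv2 had 35.3 and 30.9 TPM, Ndufv1, which binds the flavin, 22.1 and 32.8 TPM, Ndufs3 21.4 and 24.3 TPM, and Ndufs7 15.6 and 16.0 TPM. The range of Ndufv1 overlapped with those of Ndufv2 and Ndufs3, so its place was not resolved, while Ndufv2 lay above Ndufs3 in both libraries. Ndufs1 overlaps the translation factor gene Eef1b2 on the opposite strand, which stood at 263 and 276 TPM. The count of Ndufs1 had a posterior standard deviation of 0 in both libraries. Whether counting used strand is not given in the sources used here. Among the members, 25 overlap another protein-coding gene, 24 of them one on the opposite strand. The share of all genes with such an overlap is not given here.

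The 29 accessory subunits of complex I, which surround the core, spanned 36.5-fold in mean TPM around medians of 23.9 and 23.2 TPM. Ndufa6, an LYR-motif subunit of the matrix side, was the highest with 211.8 TPM in replicate 1 and 147.9 TPM in replicate 2. Ndufa3, a small membrane subunit, followed with 154.0 and 147.4 TPM. The ranges of these 2 genes met in replicate 2, so their order rests on replicate 1. Ndufb10 (92.0 and 77.0 TPM) and Ndufv3 (69.3 and 62.0 TPM) came next. At the low end, Ndufa11 had 4.95 and 4.90 TPM and Ndufb4 7.15 and 6.34 TPM. Ndufab1, the mitochondrial acyl carrier protein, which also serves fatty acid and iron-sulphur cluster synthesis, had 8.42 and 10.6 TPM.

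The 8 assembly factors of complex I, which help to build it but are not part of the finished enzyme, lay well below its subunits. Their medians were 2.51 and 2.67 TPM against 23.9 and 24.2 TPM for the 36 subunits, a difference of -3.25 log2 in replicate 1 and -3.18 log2 in replicate 2 (-3.22 ± 0.05, SD, n = 2), or 9.30-fold lower. Ndufaf1, a factor for the membrane arm, was the highest of them with 5.31 and 4.81 TPM, and Ndufaf3 had 4.94 and 4.90 TPM. Ndufaf4 (2.79 and 3.04 TPM), Ndufaf2 (2.64 and 2.60 TPM) and Ndufaf5 (2.37 and 2.74 TPM) lay between 2 and 4 TPM. Ndufaf8 had 2.02 and 1.92 TPM, Ndufaf7 1.44 and 1.59 TPM, and Ndufaf6, the lowest, 0.94 and 1.32 TPM. Ndufaf1 and Ndufaf3 overlapped in level with 1 subunit, Ndufa11, and every other factor lay below all 36 subunits in both libraries. By counts, which are not divided by length, the difference was -2.28 ± 0.21 log2.

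Complex II, succinate dehydrogenase, is encoded wholly in the nucleus by 4 genes whose products are present in equal number, yet the 4 mRNA levels differed. Sdhd, a membrane anchor, had 83.1 and 80.2 TPM. Sdha, the flavoprotein that oxidises succinate, had 24.5 and 26.5 TPM, and the iron-sulphur subunit Sdhb had 13.1 and 13.3 TPM. Sdhc, the other membrane anchor, had 4.65 and 6.44 TPM. No library of one gene overlapped with a library of the next, and the order in TPM was the same in both. Sdha exceeded Sdhb by 0.95 ± 0.07 log2 TPM, and by 2.22 ± 0.15 log2 in counts. In counts the lower part of the order was not resolved: Sdhb had 2528 and 1740 and Sdhc 2296 and 2264. Sdhb stayed above Sdhc in replicate 1 and fell below it in replicate 2.

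Complex III passes electrons from ubiquinol to cytochrome c. Uqcrb, the subunit near the quinone site, led with 327.6 and 272.7 TPM and Uqcrh, the acidic hinge protein, followed with 127.0 and 101.3 TPM. The catalytic members were lower: Uqcrfs1, the Rieske iron-sulphur protein, had 33.9 and 29.7 TPM and Cyc1, cytochrome c1, had 8.52 and 10.4 TPM. The core proteins Uqcrc2 (35.6 and 36.9 TPM) and Uqcrc1 (21.4 and 24.9 TPM) differed by 0.65 ± 0.12 log2 TPM. Uqcrq was the lowest with 7.25 and 9.53 TPM. Cycs, the electron carrier cytochrome c itself, had 13.2 and 13.0 TPM from one of the longest transcripts of the set, and exceeded Cyc1 by 0.47 ± 0.22 log2 TPM and by 1.92 ± 0.15 log2 in counts.

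Complex IV, cytochrome c oxidase, separated into 14 members at 27 TPM or more and 6 with almost no reads. Cox6b1, which faces the intermembrane space, had 233.3 and 282.8 TPM, Cox8a, a small membrane subunit, 183.2 and 203.6 TPM, and Cox6c 174.4 and 155.2 TPM. Cox5b, which binds zinc, had 134.1 and 119.3 TPM, and Cox4i1, the large regulatory subunit, 105.3 and 108.7 TPM. Ndufa4, once assigned to complex I and now to complex IV, had 67.9 and 63.4 TPM. The lowest of the 14 was Cox5a with 27.1 and 29.1 TPM.

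The 6 members with few or no reads are all paralogs of an expressed subunit. Cox6a2 and Cox8b, the forms of heart and skeletal muscle, and Cox7b2 and Cox8c, known from testis, had no counts in either library. Taking 3 counts per library as the most that a count of 0 allows, Cox8a was at least 2019-fold and 1408-fold higher in TPM than Cox8b, and at least 3427-fold and 2482-fold higher than Cox8c. Cox6a1 was at least 1400-fold and 899.8-fold higher than Cox6a2, and Cox7b at least 1780-fold and 1095-fold higher than Cox7b2. These limits cover counting error only. Cox4i2, the lung form, had 4 counts in replicate 1 and none in replicate 2. Ndufa4l2, a paralog known from hypoxia, had 17 and 30 counts, which put Ndufa4 8.55 ± 1.02 log2 above it in TPM and 7.12 ± 1.08 log2 above it in counts. Ndufa4l2 overlaps Shmt2, a gene of serine metabolism on the opposite strand with 7.23 and 12.3 TPM, and the part of its reads in these counts was not tested.

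The expressed Cox8a and the uncounted Cox8b are shown by the 250 bases before each annotated start, since one is among the highest members of complex IV and the other, a paralog, had no counts. Sequences are RefSeq windows of GRCm38.p6, 5′ to 3′ on the gene's strand. Capitals mark matches on either strand to 5 short motifs: GCATGCGC (NRF1-type core), CCGGAAGT (ETS-type), AAGATGGC (YY1-type), GGGCGGGG (SP1-type) and AGATAA (the core letters read by the GATA family).
Cox8a, chr19:7217617-7217866, minus strand: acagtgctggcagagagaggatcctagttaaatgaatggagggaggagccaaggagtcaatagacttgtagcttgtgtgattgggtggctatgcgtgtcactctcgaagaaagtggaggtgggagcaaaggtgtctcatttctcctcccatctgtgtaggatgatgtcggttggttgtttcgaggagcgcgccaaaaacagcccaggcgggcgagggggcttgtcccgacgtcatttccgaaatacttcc
Cox8b, chr7:140900447-140900696, minus strand: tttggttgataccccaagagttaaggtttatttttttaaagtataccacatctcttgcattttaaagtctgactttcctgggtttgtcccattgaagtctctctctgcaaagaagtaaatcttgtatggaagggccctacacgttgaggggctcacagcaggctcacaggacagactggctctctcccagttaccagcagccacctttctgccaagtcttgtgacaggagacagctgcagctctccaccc
Neither stretch held any of the 5 motifs, so both are printed wholly in lower case. The window of 300 bases, 250 before and 50 after the start, held CCGGAAGT for Cox8a and none of the 5 motifs for Cox8b. The Cox8a stretch held 11 CpG dinucleotides and the Cox8b stretch 1. In the windows of 300 bases, Cox8a had 19 CpG and Cox8b 2. Cox7b2 was the only other member under 1 TPM with a window. It went the other way, with 10 CpG against 5 for its expressed paralog Cox7b. Over all windows of that size, the median was 20 CpG for the members expressed at 1 TPM and 22 for all expressed nuclear protein-coding genes.

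In 2 other paralog pairs the form known from another tissue was expressed here. Cox6b2, known from testis, had 34.9 and 33.0 TPM and 2192 and 1270 counts, 2.92 ± 0.25 log2 below Cox6b1 (7.57-fold). Cox7a1, the heart and muscle form, had 49.9 and 41.3 TPM, and Cox7a2, the form found in most tissues, had 28.4 and 32.2 TPM. In TPM, Cox7a1 was thus above Cox7a2 in both libraries, by 0.81 log2 in replicate 1 and 0.36 log2 in replicate 2, and the ranges of the 2 genes did not overlap. In counts the order was the opposite: Cox7a1 had 1668 and 868 counts and Cox7a2 3213 and 2452, so Cox7a2 was 1.22 ± 0.39 log2 higher. The deposited lengths are 364 bases for Cox7a1 and 754 for Cox7a2, so the effective length decides which of the pair ranks first. Cox7a2l, a related protein that joins complexes III and IV, had 36.9 and 33.1 TPM, and its difference from Cox7a2 was smaller than the spread (0.21 ± 0.24 log2 higher) in TPM. In counts Cox7a2l was 0.88 log2 above Cox7a2 with an SD of 0.23, beyond the spread.

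The bases before the starts of Cox7a2 and Cox7a1 are shown with the same marking, because this is a pair whose order changed with the unit.
Cox7a2, chr9:79759854-79760103, minus strand: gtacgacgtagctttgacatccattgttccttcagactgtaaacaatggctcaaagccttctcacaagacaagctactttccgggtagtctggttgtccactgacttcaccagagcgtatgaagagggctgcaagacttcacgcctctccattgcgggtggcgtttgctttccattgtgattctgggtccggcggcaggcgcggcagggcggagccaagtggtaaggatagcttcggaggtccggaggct
Cox7a1, chr7:30183921-30184170, plus strand: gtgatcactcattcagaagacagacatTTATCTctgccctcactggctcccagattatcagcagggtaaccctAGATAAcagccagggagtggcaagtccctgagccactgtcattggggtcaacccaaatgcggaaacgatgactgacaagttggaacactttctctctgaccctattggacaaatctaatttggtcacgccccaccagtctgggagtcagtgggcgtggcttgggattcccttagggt
The Cox7a1 stretch held 4 CpG dinucleotides and 2 matches to AGATAA, one on each strand. The Cox7a2 stretch held 14 CpG and no match to any of the 5 motifs. AGATAA lay in the windows of 6 of 75 members (Ndufa12, Ndufc2, Cox7a1, Cox7c, Atp5g1 and Atp5g3), or 8.00%, against 10.9% of nuclear protein-coding genes. Among genes at 1 TPM or more in both libraries, the shares were 8.22% of members and 7.40% of all. These shares count AGATAA alone, so they do not give the share with any form read by the GATA family.

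The 17 members of complex V had a median of 44.9 and 41.8 TPM, against 41.0 and 37.2 TPM for the 20 of complex IV. Over members at 1 TPM or more in both libraries the order was the opposite, with 46.8 and 45.5 TPM for 16 members of complex V and 70.7 and 67.5 TPM for 14 of complex IV. Among the 5 genes of the catalytic F1 head, Atp5b (beta subunit) had 430.2 and 549.0 TPM, Atp5a1 (alpha) 91.6 and 101.6 TPM, Atp5c1 (gamma) 48.7 and 57.2 TPM, Atp5d (delta) 7.60 and 7.20 TPM and Atp5e (epsilon) 6.00 and 6.24 TPM. No library of one of these genes reached that of the next higher one. The 3 genes that encode the same c subunit of the membrane rotor were close to each other: Atp5g1 had 33.3 and 31.1 TPM, Atp5g2 28.5 and 27.3 TPM and Atp5g3 27.9 and 29.5 TPM. Atp5g1 lay 0.21 ± 0.03 log2 TPM above Atp5g2, but 0.07 ± 0.03 log2 below it in counts, and Atp5g3 differed from Atp5g2 by less than the spread. Of the stalk and membrane subunits, Atp5mpl (217.8 and 211.7 TPM), Atp5h (216.3 and 192.3 TPM) and Atp5f1 (137.1 and 137.4 TPM) were the highest and Atp5l the lowest with 5.94 and 4.47 TPM. Atp5s, named coupling factor B and not a subunit of the enzyme, was under 1 TPM with 0.92 and 0.74 TPM.

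Alpha and beta subunits alternate in the F1 head in equal number, and the lead of Atp5b over Atp5a1 was 5.04-fold in TPM (2.33 ± 0.14 log2) but 1.42-fold in counts (0.51 ± 0.07 log2). The deposited transcript tables show where these units part. The coding transcript Atp5b-201, of 1916 bases, had 41986 and 34783 counts but 27.8% and 26.3% of the gene's TPM. Atp5b-206, annotated as a processed transcript without a reading frame and 478 bases long, had 11647 and 8807 counts and 47.9% and 43.5% of the TPM. Atp5b-207, of the same type and 343 bases long, had 2731 and 2819 counts and 21.6% and 28.2% of the TPM. Summed over coding transcripts only, Atp5b exceeded Atp5a1 by 1.38-fold, an alternative chosen after seeing the data.

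These short transcripts are nearly contained in the coding one, so few of their bases can tell them from it. Of the 478 bases of Atp5b-206, 457 lie in runs of 31 or more bases shared with Atp5b-201 (its bases 1342 to 1798) and 21 are its own. Of the 343 bases of Atp5b-207, 332 are shared (bases 34 to 365 of Atp5b-201) and 11 are its own. The ends that hold these bases are printed from the GENCODE M21 transcripts on GRCm38 (plus strand of chromosome 10), 60 bases each, with the transcript's own bases in capitals and the shared coding bases in lower case.
Atp5b-206: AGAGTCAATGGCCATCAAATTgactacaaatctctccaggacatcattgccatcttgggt
Atp5b-207: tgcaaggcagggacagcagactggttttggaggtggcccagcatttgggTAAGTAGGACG
The first is the start of Atp5b-206, between positions 128088552 and 128088995 with an intron in between. The second is the end of Atp5b-207, at chr10:128084027-128084086, where its own 11 bases follow the shared exon in the genome without a break. How many reads fell on the 21 and 11 bases was not tested, since the reads were not used here.

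Atp5b was 1 of 8 members, of 90 with a mean of 0.1 TPM or more (8.89%), whose leading transcript by TPM was not a coding one, a share close to the 8.02% of all nuclear protein-coding genes. Others were Ndufa5, Ndufaf4 and Cox7c, led by processed transcripts, and Atp5j, Ndufab1 and Ndufaf8, led by retained-intron transcripts. Ndufab1-205 led with 15.4% and 23.1% of the TPM and with 52 and 63 counts, against 704 and 562 for the coding Ndufab1-201. Coding transcripts together held 55.9% and 46.5% of the TPM of Ndufab1. Ndufaf8-203 led on 36 and 32 counts. When ranked by counts, 2 of the 90 (Ndufa5 and Ndufaf4) were led by a transcript that is not coding, against 4.54% of all such genes. In Ndufa5, Ndufa5-204 took 87.6% and 84.4% of the TPM and 2452 and 1677 counts, against 791 and 645 counts for the coding Ndufa5-201. In Cox7c, Cox7c-201 took 67.9% and 74.5% of the TPM, and all of its 315 bases are shared with the coding Cox7c-203, which had 1558 and 945 counts against 1194 and 935. In Atp5j the leading type changed between the libraries: Atp5j-208, a retained-intron transcript, took 48.2% and 39.3% of the TPM and the coding Atp5j-201 39.9% and 46.0%. Over the 88 members at a mean of 1 TPM, the median share of TPM on coding transcripts was 98.8% and 98.9%. Of these members, 57 had more than 90%, and the matching numbers over all genes are not given here.

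**Figure D2:**
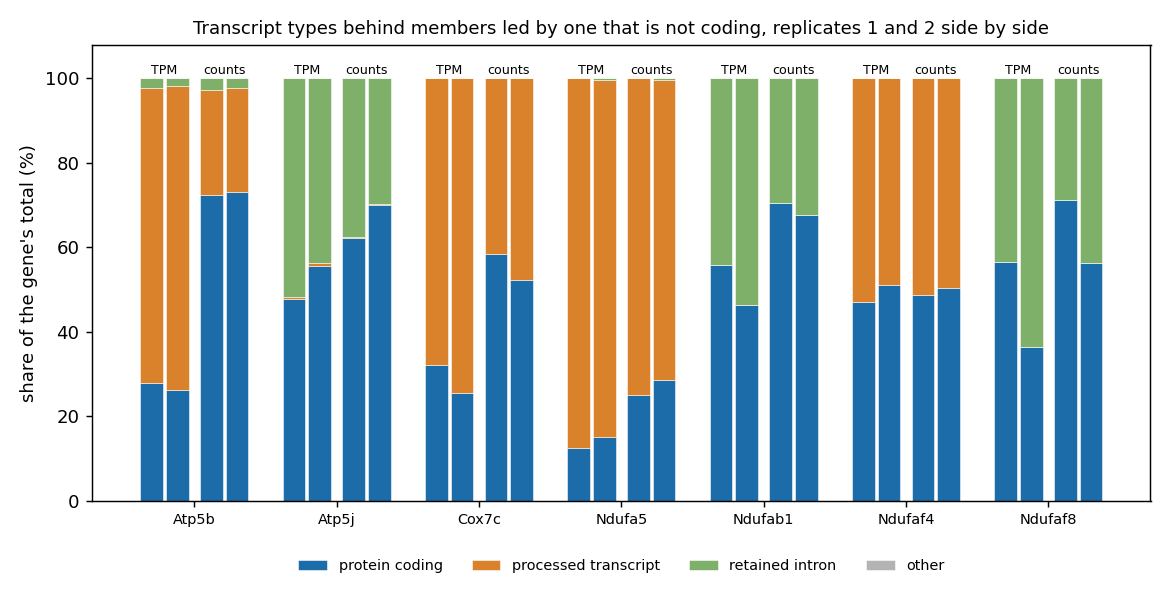
Share (%) of each gene's summed TPM (left pair of bars) and of its expected counts (right pair) by annotated transcript type, for members whose leading transcript by TPM is not coding, replicate 1 left of replicate 2 in each pair. In Atp5b the coding transcript holds 27.8% and 26.3% of the TPM, and the coding part is much larger in counts.

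**Figure D3:**
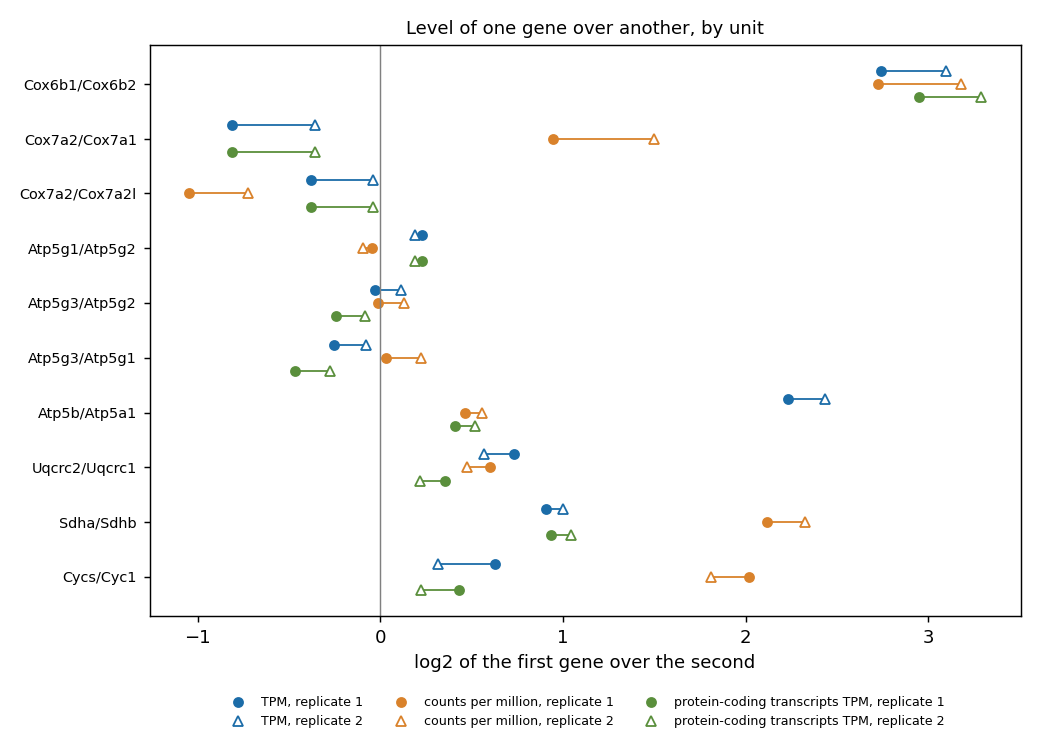
Log2 of the first gene's level over the second for 10 pairs of members, in TPM (blue), in library-scaled counts (orange) and in TPM of coding transcripts only (green); circles are replicate 1, triangles replicate 2, and a line joins them. Cox7a2 over Cox7a1 changes sign between TPM and counts, and Atp5b over Atp5a1 falls from 2.33 to 0.51 and 0.47 log2.

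Of 16 pairs of paralogs or partner subunits compared in this way, 14 differed by more than the SD between the libraries in TPM. The 14 include the pairs with Cox4i2, Cox6a2, Cox7b2, Cox8b and Cox8c. In these a floor of 3 counts stood in for 0 in at least 1 library, so their SD is not a measured spread. The pairs that did not differ by more than the SD were Cox7a2 with Cox7a2l and Atp5g3 with Atp5g2.

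The libraries gave nearly the same order of members. Spearman's rho of the TPM levels was 0.987 across the 88 members, given as a description across genes that share both libraries, and 0.981 across 7953 genes. The median coefficient of variation of the members was 7.20%. No member with a mean count of at least 100 was 2-fold apart after TMM scaling, against 1.77% of nuclear protein-coding genes, and 1 of 88 (1.14%) was 1.5-fold apart, against 6.67%. That member was Atp5k, the e subunit of the ATP synthase membrane part, with 44.9 TPM in replicate 1 and 25.2 TPM in replicate 2 (1582 and 562 counts). The next members down in replicate 2, by TMM-scaled counts, were Ndufa6 (-0.54 log2), Atp5l (-0.43), Ndufa1 (-0.43) and Atp5j (-0.38). The members most raised in replicate 2 were Sdhc (0.56 log2), Ndufaf6 (0.51), Ndufv1 (0.50), Ndufb6 (0.46) and Ndufa12 (0.37). The first set were transcripts of 659 bases or fewer in replicate 1, while the second held transcripts from 570 to 2609 bases. The deposited credible intervals of TPM did not overlap between the libraries for 46 of 88 members (52.3%), against 49.2% of all genes, so the intervals were often narrower than the spread between libraries.

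Shorter members tended to be lower in replicate 2. Of the 30 members under 600 bases, 20 were lower in replicate 2 relative to the median gene, with a median log2 ratio of -0.05, and of the 58 longer ones 21 were lower, with a median of 0.05. Over all nuclear protein-coding genes, 85 of 190 under 600 bases were lower, with a median of 0.05, and 3891 of 7763 longer ones. The order of the replicate ratio followed length with Spearman's rho of 0.34 in TPM and 0.48 in counts over the 88 members, against -0.04 and -0.03 over 7953 genes, again as a description. Length and TPM were inversely ordered among members (rho -0.35) and among all genes (rho -0.24). The 2 libraries also differ in the length taken off each transcript, and its part in these ratios was not tested.

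**Figure D4:**
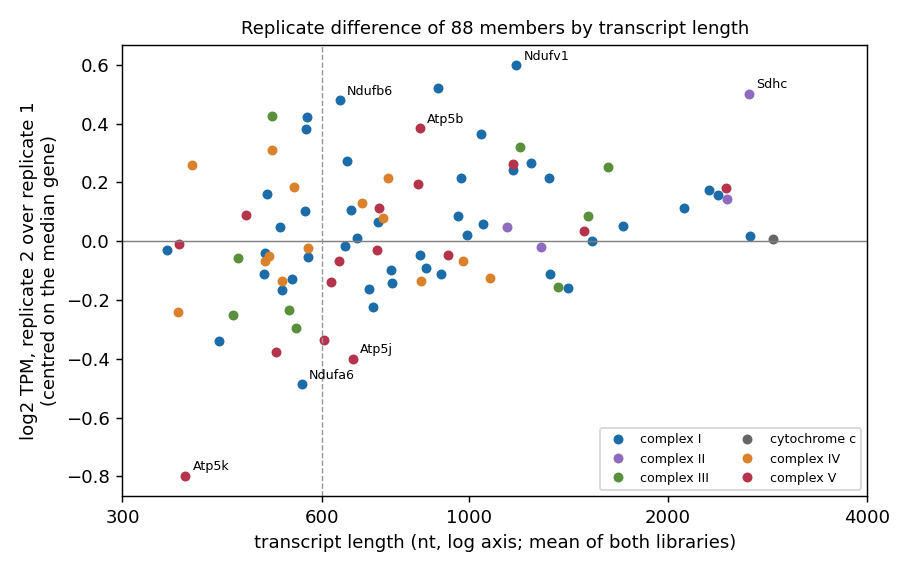
Log2 TPM ratio of replicate 2 over replicate 1, centred on the median nuclear protein-coding gene, against transcript length (log axis) for the 88 members with a mean of 1 TPM or more; colours are complexes and the dashed line is 600 bases. Below 600 bases, 20 of 30 points lie under 0, with Atp5k the lowest, and above it 21 of 58.

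By complex, the members' TPM was shared out in nearly the same way in both libraries. Complex I took 28.2% and 27.1% of it, complex II 2.54% and 2.60%, complex III 13.2% and 11.6%, complex IV 25.8% and 26.8% and complex V 30.0% and 31.6%. The complex V share includes 430.2 and 549.0 TPM of Atp5b, of which 119.4 and 144.1 TPM lay on its coding transcript. Shares by complex over coding transcripts only are not given here. The mRNAs encoded by mitochondrial DNA for the same enzymes had higher medians: 84.7 and 71.2 TPM for 7 genes of complex I, 113 and 94.3 TPM for the 1 gene of complex III, 274.9 and 218.5 TPM for 3 genes of complex IV and 329 and 402 TPM for 2 genes of complex V. Their ranges were wide, with mean levels from 3.55 to 271.8 TPM in complex I, from 42.8 to 2655 TPM in complex IV, and of 9.06 and 721.5 TPM for the genes of complex V.

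Promoter windows were at hand for 75 of the 95 members, 73 of them at 1 TPM or more in both libraries. NRF1, GABP (an ETS-family factor), YY1 and SP1 are known regulators of respiratory chain genes. The NRF1-type core GCATGCGC lay in the windows of 13 members (17.3%): Ndufa6, Ndufa8, Ndufa11, Ndufaf4, Ndufaf5, Sdhb, Uqcrc1, Uqcr11, Cycs, Cox6a1, Atp5g2, Atp5k and Atp5l. Of 16317 nuclear protein-coding genes with a window, 4.14% held it, and of the 6280 at 1 TPM or more in both libraries, here called expressed, 7.31%. Holders were found at both ends of the range of levels, from Ndufa6 to Ndufaf5. Counting only the bases before the start, 10 members held it, and the 250 bases of 3 of them are printed to show where it sits, with the capitals as defined above.
Cycs, chr6:50566570-50566819, minus strand: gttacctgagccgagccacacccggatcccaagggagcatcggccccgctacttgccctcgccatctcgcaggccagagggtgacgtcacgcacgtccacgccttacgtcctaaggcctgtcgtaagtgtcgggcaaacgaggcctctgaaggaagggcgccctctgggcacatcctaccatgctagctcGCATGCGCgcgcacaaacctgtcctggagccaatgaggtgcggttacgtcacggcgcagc
Cox6a1, chr5:115348959-115349208, minus strand: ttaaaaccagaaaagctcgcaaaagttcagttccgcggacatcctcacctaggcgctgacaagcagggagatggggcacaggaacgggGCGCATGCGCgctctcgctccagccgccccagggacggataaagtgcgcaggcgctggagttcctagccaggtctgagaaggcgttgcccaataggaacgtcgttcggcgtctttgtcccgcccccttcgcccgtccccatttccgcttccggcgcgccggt
Ndufa6, chr15:82354292-82354541, minus strand: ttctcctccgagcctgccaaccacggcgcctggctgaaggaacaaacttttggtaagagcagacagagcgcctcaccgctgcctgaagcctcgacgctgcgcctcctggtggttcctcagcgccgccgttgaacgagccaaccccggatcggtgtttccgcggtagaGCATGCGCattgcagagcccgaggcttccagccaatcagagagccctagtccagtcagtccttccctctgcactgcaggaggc
Matches on opposite strands can overlap, and in Cox6a1 they form one run of 10 capitals. AAGATGGC lay in 10 members (13.3%), against 3.66% of genes and 6.82% of expressed genes. Before the start it lay in 1 member (1.33%), against 1.78% of genes and 3.01% of expressed genes. CCGGAAGT lay in 5 members (6.67%), against 5.99% of genes and 12.6% of expressed genes. GGGCGGGG lay in 14 members (18.7%), against 27.4% and 38.0%. A match gives letters only, and says nothing of binding in these cells.

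Ndufs1, Ndufb9, Ndufa2, Ndufaf6, Sdhc, Uqcrb, Uqcrc2, Cyc1, Uqcrq, Cox6c, Cox4i1, Ndufa4l2, Cox4i2, Cox6a2, Cox8c, Atp5mpl, Atp5f1, Atp5a1 and Atp5s had no window in the table.

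A further 56 genes that build or regulate the chain were listed by hand, and 48 of them reached 1 TPM in both libraries, 39 of 44 assembly or stability factors and 9 of 12 regulators (background, 36.3% of nuclear protein-coding genes). Atpif1, the inhibitor of ATP synthase that is also required for haem synthesis in erythroid cells, was the highest with 662 and 531 TPM, above every member by its mean. Cox17, the copper chaperone of complex IV, had 187 and 172 TPM. Lrpprc, which stabilises mitochondrial mRNAs, had 26.3 and 27.1 TPM, and Surf1, a complex IV assembly factor, 21.8 and 18.3 TPM. Most others were low, as were the complex I factors: the median of the 44 was 4.91 and 4.74 TPM. Among regulators, Yy1 had 13.5 and 13.2 TPM, Nrf1 6.72 and 8.90 TPM, and Gabpa 6.73 and 6.64 TPM. The coactivator Ppargc1a had 0 and 3 counts and its relative Ppargc1b 0.29 and 0.32 TPM; the third member of that family, Pprc1, had 0.63 and 1.00 TPM. The assembly factors under 1 TPM in a library were Cox18 (1.56 and 0.97 TPM), Sdhaf3 (0.81 and 0.74 TPM), Nubpl (0.79 and 0.68 TPM), Pet117 (listed at 0 and 0.23 TPM) and Lyrm7 (0 and 17 counts).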

How the data were processed

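Total RNA-seq of 1 group of 2 libraries was used. Per the labels and the deposited read-me text, reads were set against mm10 with the GENCODE M4 annotation; which program did the quantifying, and whether by strand, is not given in the sources used here. Tables deposited by the authors hold, per gene and per transcript, the expected count, TPM, FPKM and, per transcript, the isoform's percent of the gene's TPM; the posterior mean TPM, the posterior standard deviation of the count and the credible TPM bounds are read here as deposited scores, the level of the bounds not being given. Lengths and effective lengths were taken as deposited. Gene IDs without version were joined to GENCODE M21 (42462 of 43346 rows matched); 1 of the 96 members had no row, and the values of 1 other member are not reported here.

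From these values, levels were compared within each library in TPM, and between the libraries by TPM centred on the median gene (shift -0.03 log2) and by counts rounded to whole numbers and scaled with TMM (edgeR 4.0.16 in R 4.3.3, no model fitted). DESeq2 1.42.0 size factors, posterior mean TPM, FPKM, counts, other thresholds and leaving out each library were the alternatives. TPM under 0.1 was recomputed from counts and effective lengths, since the files give 2 decimals. A pair was said to differ where the mean log2 ratio exceeded its SD over the libraries. Replicate ratios of counts scaled to the library total and centred on the median were tried on simulated libraries with Poisson noise only. TMM scaling and TPM were not part of that trial. Promoter windows (250 bases before to 50 after the start) came from RefSeq, GRCm38.p6. The rule for named genes took the 3 highest and 2 lowest members of each complex, the pairs, the core subunits and assembly factors of complex I, the Sdh genes, Cyc1 and Cycs, the 5 largest replicate ratios in each direction, members under 1 TPM and those led by a transcript that is not coding; of the other genes, the 3 highest and those under 1 TPM. Genes named beyond it, such as the F1 subunits, Cox5a, Cox5b, Surf1, Yy1, Nrf1 and Gabpa, were added for their role after values were seen. The members, lists and pairs were chosen with earlier results of these data known. The labels do not say what separated the biological replicates, so the spread may be partly technical.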

Additional observations from a re-analysis of the deposited data

How the results depend on the processing

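Under 45 alternative settings a summary count stayed within 1.5 times, or a summary value within 1 SD, of the reported one. The 45 include leaving out 1 library for the median level, the share and the assembly factors. Each of those is a mean of 2 library values, and a single library always lies within 1 SD of such a mean. Those settings could therefore not fail. Among the 45, members at 1 TPM in both libraries, 87, ran from 77 at 5 TPM to 90 at 0.1 TPM. Members with the NRF1-type core, 13, ran from 10 before the start to 18 with the shorter core CATGCG. The other settings follow. The median level of members over nuclear protein-coding genes, 2.20 log2 in TPM, was 0.0497 by library-scaled expected counts, 10.7 against all genes with no filter on low values, 1.19 against genes at 5 TPM or more, and 2.25 over coding transcripts only. The members' share of nuclear protein-coding signal was 1.18% by expected counts. No member was 2-fold apart between libraries with the count filter and 2 were without it; 1 was 1.5-fold apart. The median replicate log2 ratio of members, 0.0139, was -0.0183 for TPM without centring and -0.0150 for members at 10 TPM or more, both reversed in sign and both smaller than the spread. Complex I assembly factors lay at -2.28 log2 relative to subunits by counts and at -3.40 over coding transcripts only. Members led by a transcript that is not coding numbered 2 by counts. At 5 TPM in place of 1 TPM, 23 of the other respiratory chain genes remained. Pairs that changed sign were Cox7a2 over Cox7a1 (1.22 by counts), Atp5g1 over Atp5g2 (-0.0693 by counts), Atp5g3 over Atp5g1 (0.13 by counts) and Atp5g3 over Atp5g2 (-0.16 over coding transcripts only). The counts settings differ from TPM by the division by effective length alone; for the other settings the cause was not tested. The coding-transcript setting was added after seeing the data. No paired analysis was possible because there was 1 group. With 1 library left out, members led by a transcript that is not coding numbered 6 (without replicate 1) or 8, members at 1 TPM 88 or 87, and the other genes at 1 TPM 49 either way; the median level ran from 2.16 to 2.23 log2, the share from 3.38% to 3.50% and the assembly factors from -3.25 to -3.18 log2. Replicate ratios, intervals apart and pairs judged by their SD need both libraries. Cox7a2 and Cox7a2l differed beyond the spread in counts (-0.88 log2) but not in TPM.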
